A study of Homo sapiens with 6 samples.

Results

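The 33 genes described here encode the enzymes of cholesterol synthesis, the enzymes of fatty acid synthesis and desaturation, and the proteins that regulate both pathways. They were chosen by gene symbol, and all 33 were found among the 60675 genes of the deposited table and passed the filter on low counts. RNA was sequenced from HCT116 cells, an established human colorectal carcinoma line carried in serum-supplemented medium, in 3 groups of 2 libraries. The siPIR cells carried a small interfering RNA knockdown of PIR, the gene of the iron-binding nuclear protein Pirin, for 48 h. The SP2509 cells were wild type and were exposed for 48 h to 3 uM SP2509, a compound known to inhibit LSD1, a histone demethylase. The untreated cells were wild type. SP2509 is named in the treatment field of the siPIR samples too, the design text allows either treatment or both, and an effect of the knockdown and one of the compound cannot be told apart in those cells if both were given. The labels name no control siRNA, mention DMSO without saying which cells received it, and do not say that the 2 libraries of a group came from separate cultures. All p-values therefore measure only the spread between these libraries, which may be technical.

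Cholesterol is made from acetyl-CoA through the mevalonate pathway, which ends in farnesyl diphosphate, and then through squalene, lanosterol and a chain of sterol intermediates. Fatty acids are made from the same acetyl-CoA by carboxylation and condensation, followed by elongation and desaturation. The genes of both pathways are transcribed under sterol regulatory element binding proteins (SREBPs), membrane-bound transcription factors that SCAP escorts from the endoplasmic reticulum when sterols are scarce and that INSIG proteins hold back when sterols are plentiful.

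Stretches before the annotated starts of 6 members are shown. INSIG1 and INSIG2, and LSS and MSMO1, are pairs whose count ratios are given further on, STARD4 was the lowest regulator with SP2509, and the window of SREBF2 was the one with the sterol regulatory element core. The window of CYP51A1 held none of the motifs searched, and it is not shown because it lies wholly inside the gene as GENCODE 29 annotates it. The RefSeq promoter table on GRCh38.p14 held windows of 250 bases upstream for 29 of the 33 members. The motifs searched on both strands were the sterol regulatory element core TCACNCCAC, the NF-Y box CCAAT and the E-box CACGTG, with no overlap between them in the stretches shown. The SRE core was in 1 of the 29 member windows (3.45%), that of SREBF2, and in 0.883% of all 35116 windows. The NF-Y box was in 19 of 29 (65.5%) and in 32.01% of all windows, and the E-box was in 3 of 29 (10.3%), those of INSIG1, SC5D and SCAP, and in 6.34% of all windows. Capitals mark the SRE core or an NF-Y box, written ATTGG where the box lies on the other strand, and each stretch ends before the first transcribed base in the annotation. The stretches are at chr7:155297628-155297775 (plus strand) for INSIG1, chr2:118088221-118088451 (plus) for INSIG2, chr21:46228825-46229024 (minus) for LSS, chr4:165327419-165327622 (plus) for MSMO1, chr22:41832855-41833078 (plus) for SREBF2 and chr5:111512591-111512785 (minus) for STARD4.
INSIG1: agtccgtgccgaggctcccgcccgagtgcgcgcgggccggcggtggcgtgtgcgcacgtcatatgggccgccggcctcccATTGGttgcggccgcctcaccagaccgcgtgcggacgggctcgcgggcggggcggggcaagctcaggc
INSIG2: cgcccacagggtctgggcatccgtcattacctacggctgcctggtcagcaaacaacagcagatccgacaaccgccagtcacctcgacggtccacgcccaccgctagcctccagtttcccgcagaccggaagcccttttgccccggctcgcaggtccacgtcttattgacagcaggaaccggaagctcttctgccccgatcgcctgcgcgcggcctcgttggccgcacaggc
LSS: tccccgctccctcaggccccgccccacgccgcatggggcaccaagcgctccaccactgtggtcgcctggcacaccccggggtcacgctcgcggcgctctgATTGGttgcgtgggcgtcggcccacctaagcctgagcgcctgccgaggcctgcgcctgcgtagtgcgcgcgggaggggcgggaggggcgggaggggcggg
MSMO1: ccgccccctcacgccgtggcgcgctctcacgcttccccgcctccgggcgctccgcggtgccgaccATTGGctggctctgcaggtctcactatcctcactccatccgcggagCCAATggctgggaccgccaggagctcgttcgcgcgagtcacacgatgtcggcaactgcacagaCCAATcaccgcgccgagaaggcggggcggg
SREBF2: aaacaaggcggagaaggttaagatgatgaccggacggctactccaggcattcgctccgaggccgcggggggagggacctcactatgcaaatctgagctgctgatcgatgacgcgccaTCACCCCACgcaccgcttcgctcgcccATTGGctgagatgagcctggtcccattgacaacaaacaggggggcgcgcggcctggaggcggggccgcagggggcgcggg
STARD4: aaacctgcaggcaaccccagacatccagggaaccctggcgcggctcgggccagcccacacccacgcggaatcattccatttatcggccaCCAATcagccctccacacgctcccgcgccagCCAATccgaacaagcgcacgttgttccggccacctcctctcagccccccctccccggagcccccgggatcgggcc
The stretches of INSIG1 and LSS each hold a lone NF-Y box, that of STARD4 holds 2, that of MSMO1 holds 3, and that of INSIG2 holds none of the motifs searched. The SREBF2 stretch holds the SRE core at -133 to -125 from the start and an NF-Y box at -106 to -102. Among members with a window, the NF-Y box was present for 2 of 3 that rose in SP2509 cells, 10 of 17 that fell and 7 of 9 that passed in neither direction.

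The libraries held 22622121 to 28816285 counts, and replicate libraries correlated at 0.991 to 0.996 across the 16503 genes tested, which are not independent replicates. PIR had 37 and 39 counts in siPIR libraries, 377 and 305 in SP2509 libraries and 519 and 462 in untreated libraries. Weighted by counts, the GC content of the RNA averaged 42.3% and 42.8% in siPIR libraries, 48.3% and 48.5% in SP2509 libraries and 48.7% and 48.5% in untreated libraries. Mitochondrial rRNA took 1.14% and 1.36% of counts in siPIR, 6.33% and 6.93% in SP2509 and 1.63% and 1.6% in untreated libraries. Of 10 colorectal epithelial markers none was at 0 in a whole group, and their summed level was 1380 to 1410 CPM in siPIR, 5000 to 5110 CPM in SP2509 and 3900 to 3960 CPM in untreated libraries. VIL1, with 0 to 14 counts, did not pass the filter. Of the 9 tested, 7 were lower and 2 higher in siPIR than in untreated libraries, beside 46.9% and 39.3% of all genes (edgeR adjusted p below 0.05). With an offset for GC content and transcript length, explained further on, 4 were lower, 4 higher and 1 not called. Of all genes 32.3% were lower and 32.8% higher with that offset. The median log2 fold change of the 9 markers was -2.55 as fitted and -0.02 with the offset. KRT8 averaged 253 CPM in siPIR and 1852 CPM in untreated libraries, and EPCAM 712.7 and 212.1 CPM. The 6 fibroblast markers summed to 1.78 to 2.13 CPM in siPIR, 20.8 to 22.1 CPM in SP2509 and 22.7 to 25.7 CPM in untreated libraries, with COL1A2 at 0 in all 6. The 6 leukocyte markers summed to 0.312 to 1.15 CPM in siPIR, 1.61 to 1.67 CPM in SP2509 and 0.857 to 0.98 CPM in untreated libraries, with PTPRC and CD3E at 0 in all 6. The 5 endothelial markers summed to 0.469 to 0.575 CPM in siPIR, 0.427 to 0.471 CPM in SP2509 and 1.45 to 1.83 CPM in untreated libraries, with CDH5 at 0 in all 6. The part of these shifts in the results was not tested.

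In untreated cells 3 enzymes of fatty acid synthesis, SCD, FASN and ACLY, stood above all sterol enzymes. Levels are given in CPM, the counts of a gene relative to its library's total after scaling by the trimmed mean of M values, divided by the length of the longest transcript in kilobases when genes are compared with each other. SCD, the desaturase that makes oleate, led with 225.2 ± 1.3 CPM per kb (SD, n = 2), ahead of FASN, the fatty acid synthase, at 150.3 ± 8.9 and of ACLY, which makes cytosolic acetyl-CoA from citrate, at 66.7 ± 2.3. FDFT1 (squalene synthase) at 43.9 ± 3.6 and FDPS (farnesyl diphosphate synthase) at 42.8 ± 1.3 CPM per kb followed, and their ranges overlapped. At the other end were MVK (mevalonate kinase) at 3.81 ± 0.67 and HSD17B7 (a sterol ketone reductase) at 3.62 ± 0.2, which also overlapped. Below them were CYP51A1 (lanosterol demethylase) at 2.65 ± 0.19 and FADS2 (the delta-6 desaturase) at 2.13 ± 0.36 CPM per kb. Another gene on the same strand covers 79.35% of the exonic bases of CYP51A1, so its level is uncertain. SREBF2, at 35.7 ± 2.3 CPM per kb, lay above SREBF1, at 26.8 ± 1.8. Together the 33 genes took 0.255% and 0.29% of all counts in siPIR libraries, 0.255% and 0.25% in SP2509 libraries and 0.598% and 0.589% in untreated libraries. FASN and SCD made up 32.7% and 36.4% of the members' counts in siPIR, 39.1% and 39.8% in SP2509 and 53.6% and 52.4% in untreated libraries. Without these 2 genes the share was 0.172% and 0.185% in siPIR, 0.155% and 0.15% in SP2509 and 0.278% and 0.281% in untreated libraries.

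**Figure D1:**
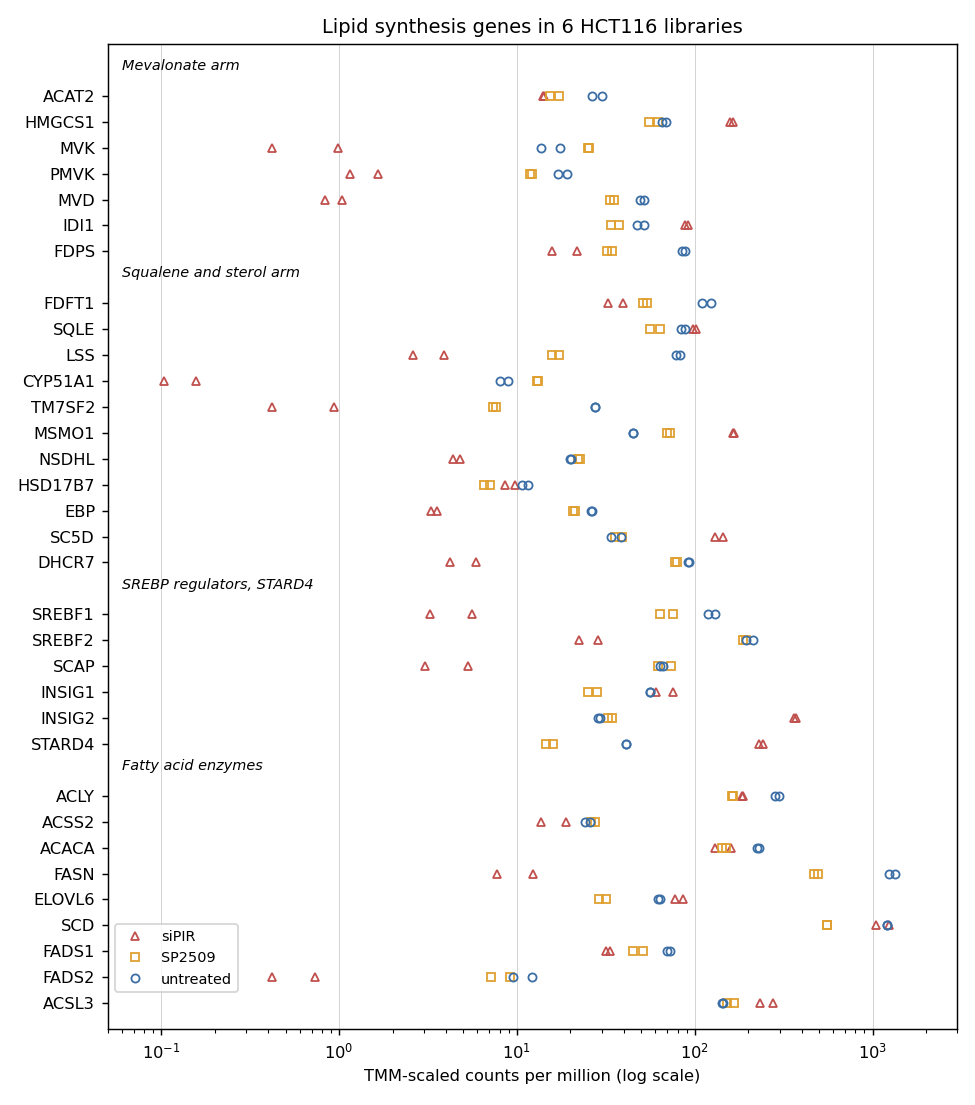
CPM of the 33 genes on a log axis in each of the 6 libraries, by role; triangles are siPIR, squares SP2509 and circles untreated libraries. The 2 symbols of a group lie close together for most genes, FASN is at 7.73 and 12.4 CPM in siPIR and at 1341 and 1234 CPM in untreated libraries, and CYP51A1 is at 0.157 and 0.104 CPM in siPIR libraries.

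SP2509 cells had less RNA of most of the enzymes and of 3 regulators of the pathway, whereas 3 sterol enzymes rose. Of the 33 members 21 fell and 3 rose past an adjusted p of 0.05 in edgeR's quasi-likelihood test, and 9 passed in neither direction. Of all genes tested 68.6% passed, 35.1% lower and 33.5% higher. The median log2 fold change of the members was -0.56, and that of all genes was -0.04. The falls were spread over the roles, with 11 of 18 sterol enzymes lower and 3 higher (median -0.50), 7 of 9 fatty acid enzymes lower and none higher (-0.63), and 3 of 6 regulators lower and none higher (-0.46). CPM did not overlap between the groups for 30 of 33 members and for 86.9% of all genes. In bulk RNA, fewer cells that express a gene and less RNA per cell cannot be told apart. The median of all genes depended on the scaling, at -0.27 by upper quartiles and -0.43 by total counts, where 20.4% of all genes were called higher and 51.7% lower (72% in either direction). The members' median stood below that of all genes under each of them, at -0.80 and -0.95.

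**Figure D2:**
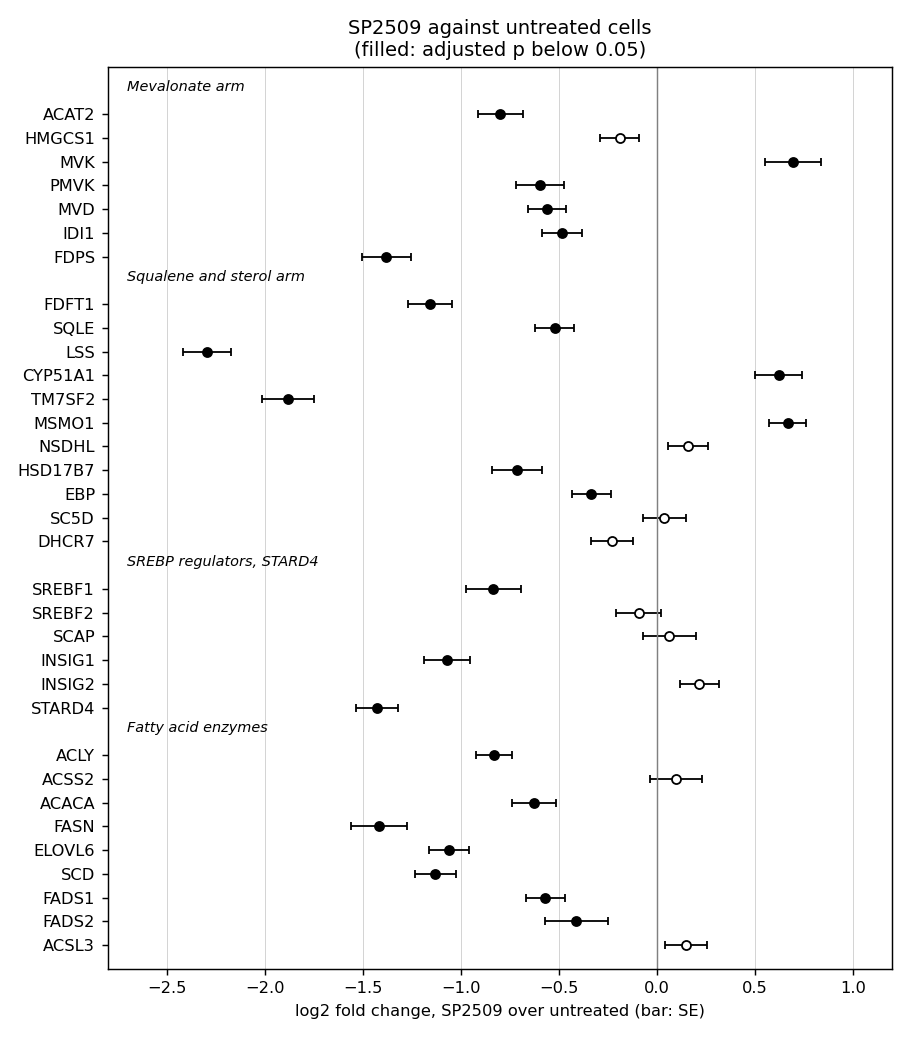
Log2 fold change of each of the 33 genes in SP2509 over untreated cells, with bars for the SE, by role; filled circles passed the adjusted p of 0.05. LSS lies lowest at -2.29, and MVK, MSMO1 and CYP51A1 are the filled circles to the right of 0.

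In the mevalonate arm 5 of 7 enzymes fell, 1 rose and 1 did not pass. FDPS (chr1:155308748-155320666, plus strand, GRCh38), which joins isoprene units to farnesyl diphosphate, had 34.2 and 32.1 CPM in SP2509 cells and 84.4 and 88.2 CPM in untreated cells. Its log2 fold change was -1.38 (SE 0.125, edgeR adjusted p = 8.49e-07), and the groups stood well apart. An antisense gene, RUSC1-AS1, covers 18.64% of its exonic bases, and antisense genes cover 14.95% of those of HMGCS1 and 14.8% of those of IDI1. ACAT2 has the largest overlaps on the opposite strand among the members, with 33.91% of its exonic bases covered by SOD2-OT1, 26.54% by SOD2 and 9.23% by TCP1. The sources used here do not give the strand setting of the counting, so the values of these 4 genes are uncertain. ACAT2, the cytosolic thiolase that starts the pathway, had 17.3 and 15.3 CPM in SP2509 and 26.5 and 30.2 CPM in untreated cells (-0.80, SE 0.114, edgeR adjusted p = 4.45e-05). MVD, which makes isopentenyl diphosphate, had 33.4 and 34.99 CPM in SP2509 and 49.4 and 51.6 CPM in untreated cells (-0.56, SE 0.097, edgeR adjusted p = 0.000215). PMVK, the kinase before MVD, fell by 0.60 and IDI1, the isomerase after it, by 0.48 on the log2 scale. MVK (chr12:109573255-109598117, plus strand), the kinase directly before PMVK, went the other way, with 25.1 and 25.3 CPM in SP2509 cells and 13.7 and 17.6 CPM in untreated cells. The log2 fold change of MVK was 0.69 (SE 0.143, edgeR adjusted p = 0.000876). HMGCS1, the synthase that makes HMG-CoA, did not pass, with 61.9 and 55.3 CPM in SP2509 and 65.1 and 68.6 CPM in untreated cells (-0.19, edgeR adjusted p = 0.108). It was called lower with upper-quartile scaling (-0.42, edgeR adjusted p = 0.00164), with total counts (-0.58, 0.000129), with an offset for GC content and transcript length (-0.20, 0.0232, or 0.0335 with the replicate block) and in a fit of the 4 libraries compared (-0.18, 0.0278).

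In the squalene and sterol arm 6 of 11 enzymes fell, 2 rose and 3 did not pass. LSS (chr21:46188141-46228824, minus strand), the cyclase that closes the rings of lanosterol and whose promoter is shown above, had 17.2 and 15.7 CPM in SP2509 cells and 78.25 and 82.6 CPM in untreated cells. Its log2 fold change, -2.29, was the lowest of the 33 (SE 0.122, edgeR adjusted p = 1.2e-08). TM7SF2, a sterol delta-14 reductase, had 7.62 and 7.29 CPM in SP2509 and 27.5 and 27.4 CPM in untreated cells (-1.88, SE 0.132, edgeR adjusted p = 1.09e-07). FDFT1, which commits farnesyl diphosphate to sterols, had 53.9 and 51.0 CPM in SP2509 and 110.1 and 123.5 CPM in untreated cells (-1.16, SE 0.112, edgeR adjusted p = 1.57e-06). The steps on either side of LSS went different ways. SQLE, the epoxidase directly before LSS, fell by 0.52 on the log2 scale. CYP51A1, the demethylase directly after LSS, was higher, with 13.1 and 13.0 CPM in SP2509 and 8.08 and 8.95 CPM in untreated cells (0.62, SE 0.120, edgeR adjusted p = 0.000526). The values of CYP51A1 are uncertain, because another gene on the same strand covers 79.35% of its exonic bases. MSMO1 (chr4:165327623-165343160, plus strand), the C-4 methylsterol oxidase, had 69.8 and 72.9 CPM in SP2509 cells and 45.1 and 44.8 CPM in untreated cells (0.67, SE 0.094, edgeR adjusted p = 3.93e-05). NSDHL, which acts with MSMO1, did not pass (0.16, edgeR adjusted p = 0.185), and HSD17B7, the reductase of the same step, fell by 0.71 on the log2 scale. HSD17B7P2, a pseudogene copy of HSD17B7, had up to 96 counts in a library. The part of this copy in the values of HSD17B7 was not tested in any comparison. EBP, the sterol isomerase, fell by 0.33 and did not pass with DESeq2 (-0.31, DESeq2 adjusted p = 0.0638). It no longer passed without any 1 of the 4 libraries compared, where its log2 fold change was -0.34 to -0.29. SC5D at 0.04 and DHCR7 at -0.23, the desaturase and reductase of the last steps, did not pass (edgeR adjusted p = 0.767 and 0.075). DHCR7 was called lower with upper-quartile scaling (-0.46, edgeR adjusted p = 0.00203), total counts (-0.62, 0.000163), a filter of 1 CPM (-0.26, 0.0477), a block on the unexplained description number (-0.23, 0.0142) and in the fit of 4 libraries (-0.22, 0.00467), while its value with the GC-length offset was -0.02. SC5D was called lower with total counts (-0.35, edgeR adjusted p = 0.0102), and NSDHL higher with the offset (0.23, edgeR adjusted p = 0.0412). With total counts MSMO1 was the member still called higher (0.28, edgeR adjusted p = 0.0221), while MVK (0.30, edgeR adjusted p = 0.0707) and CYP51A1 (0.23, edgeR adjusted p = 0.114) did not pass.

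Among the regulators SREBF1, INSIG1 and STARD4 fell, and SREBF2, SCAP and INSIG2 did not pass. SREBF1, whose product drives chiefly fatty acid genes, had 64.0 and 75.6 CPM in SP2509 cells and 130.3 and 118.7 CPM in untreated cells (-0.84, SE 0.140, edgeR adjusted p = 0.000167). SREBF2, whose product drives chiefly sterol genes and whose window held the SRE core, overlapped between the groups, with 186.8 and 194.7 CPM in SP2509 and 212.7 and 194.2 CPM in untreated cells (-0.09, SE 0.114, edgeR adjusted p = 0.483). Scaling by total counts (-0.48, edgeR adjusted p = 0.00182) or by upper quartiles (-0.33, 0.0216) called it lower, as it did SREBF1, and was at 0.04 with the GC-length offset. SCAP, the escort, overlapped too, with 62.3 and 73.4 CPM in SP2509 and 66.0 and 63.9 CPM in untreated cells (0.06, edgeR adjusted p = 0.696). SCAP was called higher with the offset (0.29, edgeR adjusted p = 0.00397) and lower with total counts (-0.33, 0.0422). INSIG1 (chr7:155297776-155310235, plus strand), itself a target of SREBPs, had 28.2 and 25.1 CPM in SP2509 cells and 55.8 and 55.9 CPM in untreated cells (-1.07, SE 0.119, edgeR adjusted p = 5.2e-06). INSIG2, the second retention protein, had 34.4 and 32.6 CPM in SP2509 and 29.2 and 28.5 CPM in untreated cells and did not pass (0.22, SE 0.099, edgeR adjusted p = 0.0695). INSIG2 was called higher with the offset (0.29, edgeR adjusted p = 0.00584, or 0.00528 with the replicate block), with the description block (0.22, 0.0276) and in the fit of 4 libraries (0.22, 0.0137). It was at -0.02 when scaled by upper quartiles (edgeR adjusted p = 0.868) and -0.17 by total counts (0.145). STARD4, a carrier that moves cholesterol between membranes, had 15.9 and 14.6 CPM in SP2509 and 40.8 and 41.2 CPM in untreated cells (-1.43, SE 0.105, edgeR adjusted p = 1.52e-07).

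Of the 9 fatty acid enzymes 7 fell and none rose. FASN (chr17:82078333-82098332, minus strand) had 470.6 and 493.8 CPM in SP2509 cells and 1341 and 1234 CPM in untreated cells (-1.42, SE 0.142, edgeR adjusted p = 2.08e-06). SCD (chr10:100347124-100364834, plus strand) had 552 and 551.6 CPM in SP2509 cells and 1212 and 1202 CPM in untreated cells (-1.13, SE 0.106, edgeR adjusted p = 1.19e-06). ELOVL6, which elongates palmitate, had 28.8 and 31.5 CPM in SP2509 and 62.1 and 63.7 CPM in untreated cells (-1.06, SE 0.102, edgeR adjusted p = 1.45e-06). The groups stood apart for all 3. ACLY fell by 0.83, ACACA, the acetyl-CoA carboxylase, by 0.63 and FADS1, the delta-5 desaturase, by 0.57 on the log2 scale. FADS2 fell by 0.41 (edgeR adjusted p = 0.0382) and no longer passed without untreated replicate 1 (edgeR adjusted p = 0.407) or without SP2509 replicate 1 (0.326), nor with RLE factors (0.0505), DESeq2 (0.146) or the offset (-0.25, 0.111). ACSS2, which makes acetyl-CoA from acetate, and ACSL3, which activates fatty acids, did not pass, at 0.10 (edgeR adjusted p = 0.529) and 0.15 (edgeR adjusted p = 0.232). ACSS2 was called higher with the offset (0.24, edgeR adjusted p = 0.0333), and ACSL3 was called higher in the fit of 4 libraries (0.16, edgeR adjusted p = 0.0378) and lower with total counts (-0.24, 0.0465).

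Genes outside the 33 but in the same pathways were read from 4 lists of genes of known role. Of all genes tested 68.6% passed, 35.1% lower and 33.5% higher (median -0.04), and no test of a list was made. Of 11 tested other sterol genes 7 fell and 4 rose (median -0.57). Among them TMEM97, a sterol-responsive membrane protein, was at -0.92 (edgeR adjusted p = 3.11e-06) and GGPS1, the geranylgeranyl diphosphate synthase, at 0.40 (edgeR adjusted p = 0.00223). Of 11 genes of SREBP processing and sterol-regulated degradation 5 rose and 3 fell (median 0.12). The ubiquitin ligase RNF139 was among the rises (1.49, edgeR adjusted p = 7.55e-08), and RNF145, another ligase, was among the falls (-0.95, edgeR adjusted p = 4.02e-06). Of 19 other fatty acid and lipogenic genes 9 fell and 6 rose (median -0.17), with ELOVL3 at -2.00 and LPIN1, a phosphatidate phosphatase, at 1.32. Of 11 genes of cholesterol export or storage and LXR targets 4 rose and 4 fell (median 0.07). NPC1, which moves cholesterol out of lysosomes, was at 1.92 (edgeR adjusted p = 1.17e-08), and ABCG1, a sterol exporter, at -1.17.

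In siPIR cells the members spread far more widely, and their fold changes followed the GC content of their transcripts. Of the 33 members 21 fell and 9 rose against untreated cells, and 86.1% of all genes passed, 46.9% lower and 39.3% higher. The median log2 fold change was -1.13 for the members and -0.28 for all genes. With total counts 6 members were higher and 26 lower, beside 29.1% and 56.7% of all genes (85.8% in either direction). CPM did not overlap for 32 of 33 members and for 93.1% of all genes. Across the 33 genes Spearman's rho between GC content and log2 fold change was -0.873, and across 16345 genes with a GC value it was -0.883. These points share the same 4 libraries. The corresponding values for SP2509 over untreated cells were -0.244 and -0.089. The median log2 fold change in siPIR over untreated cells was 1.86 for genes of 35% to 40% GC and -4.11 for genes of 60% to 65% GC. Log2 fold changes of siPIR over untreated cells are therefore given with the transcript's GC content and with a second value, called the offset value. It comes from a fit with an offset for each library's trend on GC content and transcript length. With the offset, rho was still -0.517 across the 33 genes and -0.182 across the 16345 genes, so offset values are not free of the trend. The offset was estimated from these same libraries, and the part of GC content in the results was not tested beyond it. With the offset 21 members fell and 6 rose (median -0.64), beside 32.3% and 32.8% of all genes, 65% in either direction (median -0.04). Of the 21 that fell as fitted, 17 also fell with the offset, and of the 9 that rose, 4 also rose. The same shares over all genes are not given here, so these counts do not set the members apart from other genes. In SP2509 over untreated cells the offset gave 21 lower and 7 higher members, beside 34.6% and 38.5% of all genes, 73.1% in either direction.

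**Figure D3:**
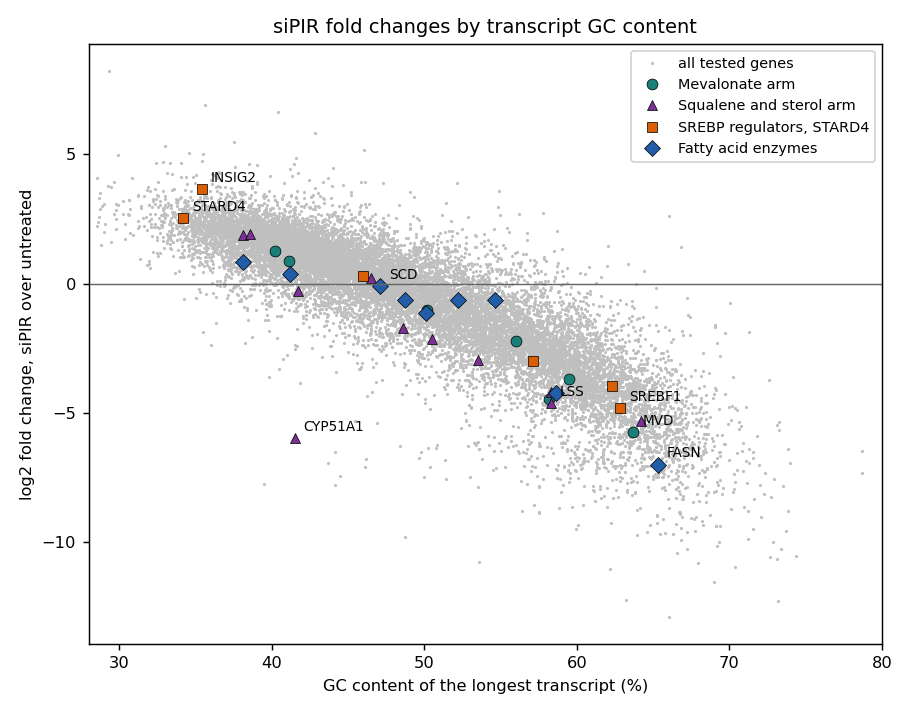
Log2 fold change in siPIR over untreated cells against the GC content of the longest transcript; grey points are all tested genes with a GC value and coloured symbols the 33 members by role. The members lie along the downward band of all genes, except CYP51A1, at 41.5% GC and -5.98.

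CYP51A1 (chr7:92112151-92134803, minus strand) stood apart from that band. It had 3 and 2 counts in siPIR libraries, 334 and 336 in SP2509 libraries and 292 and 283 in untreated libraries. The siPIR level was 1.54% of the untreated level, with an exact 95% interval of 0.497% to 3.61%, and 0.997% of the SP2509 level (0.323% to 2.34%), where the intervals cover counting error only. The log2 fold change over untreated cells was -5.98 (SE 0.290, edgeR adjusted p = 4.1e-10) and the offset value -7.07 (edgeR adjusted p = 8.65e-16), whereas genes of 40% to 45% GC had a median of 1.08. In GENCODE 29, AC000120.2, a gene on the same strand, covers 79.35% of the exonic bases of CYP51A1. The deposited table does not list AC000120.2, and the annotation used for counting is not given, so the counts of CYP51A1 are uncertain. No other member with a GC content below 45% fell as fitted.

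In the mevalonate arm 5 of 7 enzymes fell in siPIR cells and 2 rose, and with the offset 5 fell, none rose and 2 did not pass. MVD (63.7% GC) had 0.836 and 1.04 CPM in siPIR cells and 49.4 and 51.6 CPM in untreated cells, with a log2 change of -5.74 (edgeR adjusted p = 1.25e-11, SE 0.162) and an offset value of -1.71. PMVK (59.5% GC) had 1.15 and 1.67 CPM in siPIR and 17.1 and 19.2 CPM in untreated cells (-3.68, edgeR adjusted p = 4.29e-10, offset -0.64). MVK (58.2% GC) had 0.418 and 0.989 CPM in siPIR and 13.7 and 17.6 CPM in untreated cells (-4.46, edgeR adjusted p = 1.86e-09, offset -1.79). These 3 consecutive steps of the pathway were lower in both fits. FDPS (56% GC) fell by 2.20 on the log2 scale, but its offset value, -0.13, did not pass (edgeR adjusted p = 0.218). HMGCS1 (40.2% GC) had 163.8 and 157.2 CPM in siPIR and 65.1 and 68.6 CPM in untreated cells, and IDI1 (41.1% GC) had 88.2 and 91.9 CPM in siPIR and 47.2 and 51.9 CPM in untreated cells. Both rose as fitted, by 1.26 and 0.86 on the log2 scale, and with the offset HMGCS1 did not pass (-0.11, edgeR adjusted p = 0.203) and IDI1 was lower (-0.35, edgeR adjusted p = 0.000748).

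In the squalene and sterol arm 7 of 11 enzymes fell and 2 rose, and with the offset 8 fell and 2 rose. DHCR7 (58.3% GC), the last reductase, had 4.23 and 5.88 CPM in siPIR cells and 92.5 and 91.5 CPM in untreated cells (-4.18, SE 0.140, edgeR adjusted p = 2.76e-11, offset -1.46). LSS (58.3% GC) had 2.61 and 3.91 CPM in siPIR and 78.25 and 82.6 CPM in untreated cells (-4.62, SE 0.155, edgeR adjusted p = 2.76e-11, offset -1.97). TM7SF2 (64.2% GC) had 0.418 and 0.937 CPM in siPIR and 27.5 and 27.4 CPM in untreated cells (-5.33, SE 0.208, edgeR adjusted p = 7.41e-11, offset -1.19). EBP (53.5% GC) fell by 2.94, NSDHL (50.5% GC) by 2.12 and FDFT1 (48.6% GC) by 1.70 on the log2 scale, with offset values of -1.56, -1.46 and -1.43. The 2 rises were in low-GC transcripts. MSMO1 (38.1% GC) had 164.1 and 165.2 CPM in siPIR and 45.1 and 44.8 CPM in untreated cells (1.87, SE 0.095, edgeR adjusted p = 6.06e-10), and its offset value was 0.21 (edgeR adjusted p = 0.0311). SC5D (38.6% GC) had 144 and 130 CPM in siPIR and 33.9 and 38.7 CPM in untreated cells (1.92, SE 0.109, edgeR adjusted p = 1.77e-09), and its offset value was 0.32. SQLE (46.5% GC) at 0.22 and HSD17B7 (41.7% GC) at -0.29 did not pass (edgeR adjusted p = 0.0548 and 0.0521). The offset value was 0.087 for SQLE (edgeR adjusted p = 0.327) and -1.37 for HSD17B7 (edgeR adjusted p = 2.86e-09). The call of SQLE turned with the scaling, since it was higher with RLE factors (0.36, edgeR adjusted p = 0.00493), DESeq2 (0.36, 0.00369) and the 1 CPM filter (0.24, 0.0351) and lower with total counts (-0.40, 0.00199). HSD17B7 was called lower with upper-quartile scaling (-0.46, edgeR adjusted p = 0.00546), total counts (-0.90, 1.29e-05) and no count filter (-0.37, 0.0269). SQLE passed without siPIR replicate 1 (0.21, edgeR adjusted p = 0.0359) or 2 (0.27, 0.00932), and HSD17B7 without siPIR replicate 2 (-0.36, edgeR adjusted p = 0.0359).

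Of the 6 regulators 3 rose and 3 fell in siPIR cells. INSIG2 (chr2:118088452-118110997, plus strand, 35.4% GC) had 368.8 and 360.7 CPM in siPIR cells and 29.2 and 28.5 CPM in untreated cells. Its log2 fold change was 3.66 (SE 0.104, edgeR adjusted p = 1.25e-11) and its offset value 1.68 (edgeR adjusted p = 8.07e-14), the highest of the 33 in both fits. Genes of 35% to 40% GC had a median of 1.86. STARD4 (34.2% GC) had 229 and 243 CPM in siPIR and 40.8 and 41.2 CPM in untreated cells (2.52, SE 0.100, edgeR adjusted p = 8.44e-11, offset 0.39). INSIG1 (46% GC) had 60.8 and 75.7 CPM in siPIR and 55.8 and 55.9 CPM in untreated cells (0.29, SE 0.115, edgeR adjusted p = 0.0318), and it did not pass with the offset (0.06, edgeR adjusted p = 0.605) or without any 1 of untreated replicate 1, untreated replicate 2 and siPIR replicate 2 (edgeR adjusted p = 0.135 to 0.159). With upper-quartile scaling it did not pass (0.12, edgeR adjusted p = 0.372), nor without a count filter (0.21, 0.131) or in the fit of 4 libraries (0.28, 0.0605), and with total counts it was called lower (-0.32, 0.025). SREBF1 (62.8% GC) had 3.24 and 5.57 CPM in siPIR and 130.3 and 118.7 CPM in untreated cells (-4.82, SE 0.185, edgeR adjusted p = 6.67e-11, offset -1.02). SREBF2 (57.1% GC) had 22.2 and 28.5 CPM in siPIR and 212.7 and 194.2 CPM in untreated cells (-3.00, SE 0.128, edgeR adjusted p = 1.45e-10, offset -0.70). Both SREBP genes were lower in both fits. SCAP (62.3% GC) had 3.03 and 5.31 CPM in siPIR and 66.0 and 63.9 CPM in untreated cells (-3.96, edgeR adjusted p = 2.66e-10), and its offset value, -0.29, did not pass (edgeR adjusted p = 0.0754).

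Of the 9 fatty acid enzymes 6 fell and 2 rose in siPIR cells, in either fit, but not the same genes. FASN (65.3% GC) had 7.73 and 12.4 CPM in siPIR cells and 1341 and 1234 CPM in untreated cells (-7.00, SE 0.189, edgeR adjusted p = 1.18e-11). Its offset value, -2.75 (edgeR adjusted p = 4.43e-16), was the lowest of the 33 after that of CYP51A1, and genes above 65% GC had a median of -5.83 as fitted. FADS2 (58.6% GC) had 8 and 14 counts in siPIR and 438 and 301 counts in untreated libraries (-4.23, edgeR adjusted p = 6.34e-09, offset -1.50). FADS1 (50.1% GC) had 33.5 and 31.8 CPM in siPIR and 72.6 and 70.1 CPM in untreated cells (-1.13, edgeR adjusted p = 2.09e-07, offset -0.60). These 3 were lower in both fits, as was ACACA (48.7% GC), at -0.65 and -0.50. SCD (47.1% GC) overlapped between the groups, with 1043 and 1233 CPM in siPIR and 1212 and 1202 CPM in untreated cells (-0.09, edgeR adjusted p = 0.451, offset -0.17). It passed without siPIR replicate 2 (-0.19, edgeR adjusted p = 0.0211) and turned to 0.05 without siPIR replicate 1. SCD was called lower with total counts (-0.70, edgeR adjusted p = 3.21e-05) and by upper quartiles (-0.26, 0.0386), and was at 0.06 with RLE factors (0.622). ACSL3 (38.1% GC) had 273.8 and 231.8 CPM in siPIR and 144.7 and 141.4 CPM in untreated cells, and ELOVL6 (41.2% GC) had 85.4 and 77.2 CPM in siPIR and 62.1 and 63.7 CPM in untreated cells. They rose by 0.82 and 0.37 on the log2 scale, but with the offset both were lower, at -0.94 and -0.92. ELOVL6 did not pass without untreated replicate 1 (edgeR adjusted p = 0.0502) or by upper quartiles (0.19, 0.0775), and total counts called it lower (-0.25, 0.0291). ACSL3 did not pass with total counts (0.20, edgeR adjusted p = 0.0801). ACLY (52.2% GC, -0.65) and ACSS2 (54.6% GC, -0.62) fell as fitted and were higher with the offset, at 0.36 (edgeR adjusted p = 0.000118) and 1.04 (edgeR adjusted p = 1.53e-08). The directions of these 4 genes thus depended on the offset.

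**Figure D4:**
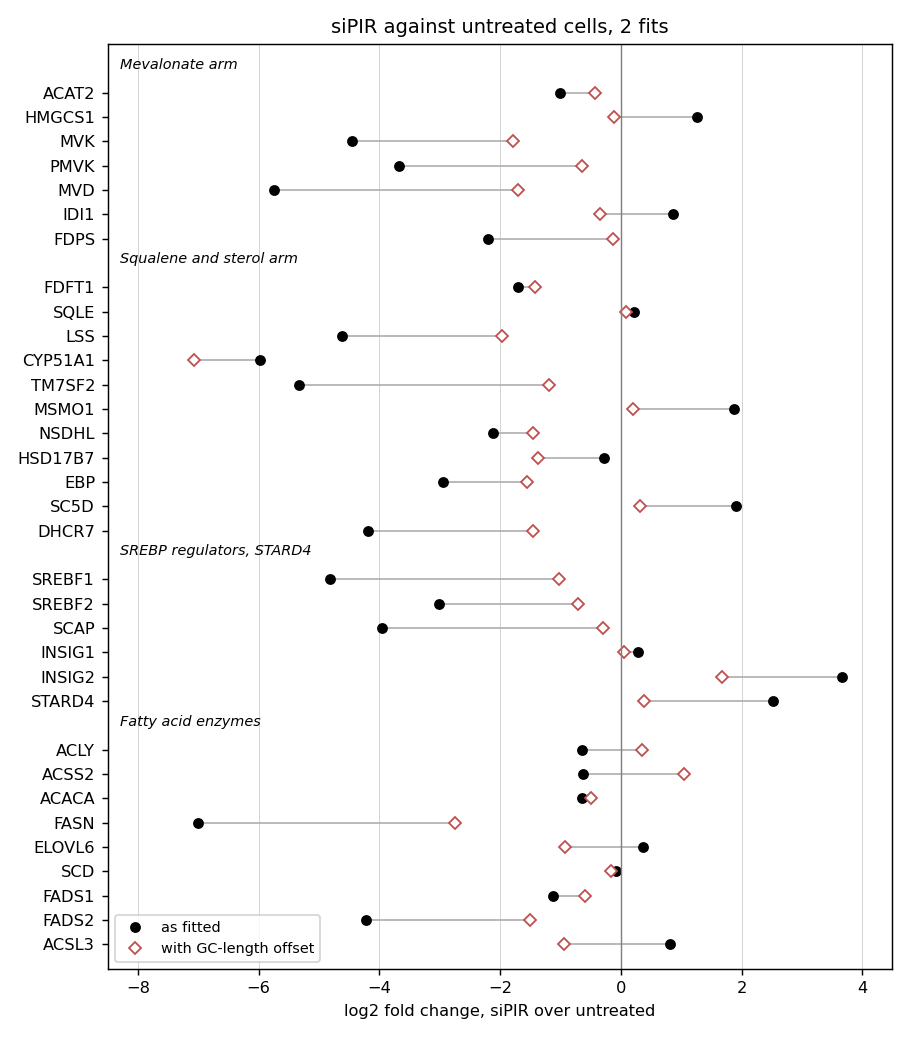
Log2 fold change of each of the 33 genes in siPIR over untreated cells, as fitted (filled circles) and with the GC-length offset (open diamonds), joined by a line, by role. The line crosses 0 for HMGCS1, IDI1, ACLY, ACSS2, ELOVL6 and ACSL3, and CYP51A1 lies lowest with the offset, at -7.07.

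The related lists also held called genes in both directions in siPIR cells. Of all genes 46.9% were lower and 39.3% higher as fitted (86.1% in either direction). With the offset 32.3% were lower and 32.8% higher (65% in either direction), and no test of a list was made. Of 11 other sterol genes 8 fell and 3 rose (offset 8 and 1). CYB5R3 (60.1% GC), the cytochrome b5 reductase, was at -4.36 as fitted (edgeR adjusted p = 2.06e-11) and at -1.21 with the offset. GGPS1 (40.4% GC) was at 1.59 as fitted and at 0.26 with the offset (edgeR adjusted p = 0.00811). Of 11 genes of SREBP processing and degradation 8 rose and 3 fell (offset 6 and 2), with RNF139 (44.7% GC) at 2.26 (offset 1.79). Of 19 other fatty acid genes 11 rose and 8 fell (offset 9 and 4). TECR (48.5% GC), the reductase of very long chain elongation, was at -4.25 as fitted and at -3.99 with the offset (edgeR adjusted p = 2.17e-17). Of 11 export and storage genes 4 rose and 6 fell in each fit, and ABCA1 (45.5% GC), the cholesterol exporter, was at 1.93 (offset 1.45, edgeR adjusted p = 1.37e-10).

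The direct comparison of siPIR with SP2509 cells asked whether the 2 treated groups differed. Of the 33 members 18 were lower and 12 higher in siPIR cells, beside 45.5% and 38.8% of all genes (84.3% in either direction), and the medians were -0.56 for the members and -0.23 for all genes. The offset left 15 lower and 10 higher (median -0.07), beside 37% and 32.6% of all genes, 69.6% in either direction (median -0.06). CPM did not overlap for 32 of 33 members and for 91.8% of all genes. Spearman's rho between GC content and log2 fold change over the 33 genes was -0.847 as fitted and -0.348 with the offset. Over all genes with a GC value it was -0.837 and -0.161. This comparison and the other 2 share libraries, so their values are given side by side only.

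Members that differed in the same direction in both fits included all 6 regulators. INSIG1 was at 1.36 as fitted and 1.08 with the offset, INSIG2 at 3.45 and 1.39, and STARD4 at 3.95 and 1.75. SREBF1 was at -3.98 and -0.43, SREBF2 at -2.91 and -0.74, and SCAP at -4.02 and -0.58, and the highest edgeR adjusted p among these 12 values was 0.00806, for SREBF1 with the offset. Among the enzymes SCD was higher in siPIR than in SP2509 cells (1.04, offset 0.95, edgeR adjusted p = 6.9e-07 as fitted), as were SQLE (0.74, offset 0.56) and SC5D (1.88, offset 0.26). SCD had 1043 and 1233 CPM in siPIR and 552 and 551.6 CPM in SP2509 cells, SQLE 101.5 and 98.2 CPM in siPIR and 63.5 and 56.3 CPM in SP2509 cells, and SC5D 144 and 130 CPM in siPIR and 39.0 and 35.5 CPM in SP2509 cells. FASN was lower (-5.58, offset -1.60), as were MVK (-5.15, offset -2.66), CYP51A1 (-6.60, offset -7.69), MVD (-5.18, offset -1.44), DHCR7 (-3.95, offset -1.44), NSDHL (-2.28, offset -1.68), EBP (-2.61, offset -1.32) and FADS2 (-3.82, offset -1.25). EBP had 3.29 and 3.54 CPM in siPIR and 21.1 and 20.6 CPM in SP2509 cells. FADS2 had 8 and 14 counts in siPIR and 183 and 235 counts in SP2509 libraries. ELOVL6, with 85.4 and 77.2 CPM in siPIR and 28.8 and 31.5 CPM in SP2509 cells, and FADS1, with 33.5 and 31.8 CPM in siPIR and 45.2 and 50.9 CPM in SP2509 cells, passed as fitted (1.43 and -0.56) but not with the offset (0.19 and -0.07). LSS, which was the member lowest against untreated cells under SP2509, was at -2.33 as fitted (edgeR adjusted p = 1.72e-08) and at 0.16 with the offset, which did not pass (edgeR adjusted p = 0.358). TM7SF2 was at -3.45 as fitted and at 0.40 with the offset, which did not pass either (edgeR adjusted p = 0.247). The direction turned for MSMO1 (1.21, offset -0.48), ACSL3 (0.67, offset -1.07, with 273.8 and 231.8 CPM in siPIR and 166.3 and 151 CPM in SP2509 cells), HSD17B7 (0.43, offset -0.67), FDPS (-0.83, offset 1.10) and ACSS2 (-0.72, offset 0.80), each of which passed in both fits. The value of HSD17B7 as fitted did not pass without siPIR replicate 2 (edgeR adjusted p = 0.0571) or without SP2509 replicate 2 (0.0787), nor with total counts (0.20, 0.228) or no count filter (0.33, 0.0735). ACLY (0.18, edgeR adjusted p = 0.0841, offset 1.11) passed as fitted without either siPIR replicate (edgeR adjusted p = 0.0258 and 0.0321) and with RLE factors (0.30, 0.0109), DESeq2 (0.30, 0.00555), upper-quartile scaling (0.24, 0.023) or the 1 CPM filter (0.23, 0.0309). ACAT2 did not pass as fitted (-0.21, edgeR adjusted p = 0.128) and was called lower with total counts (-0.44, 0.00557) or no count filter (-0.31, 0.0482) and higher with the offset (0.29, 0.0308). ACACA did not pass in either fit (-0.02, offset 0.12).

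Ratios of the counts of 2 genes within a library do not depend on its scaling, although a trend on GC content can move them where the 2 transcripts differ in it. The pairs were chosen after their values were seen, and no test was made. INSIG2 over INSIG1 was 6.07 and 4.76 in siPIR libraries, 1.22 and 1.3 in SP2509 libraries and 0.523 and 0.509 in untreated libraries. INSIG1 thus had more counts than INSIG2 in untreated libraries alone. SREBF2 over SREBF1 was 6.85 and 5.12 in siPIR, 2.92 and 2.58 in SP2509 and 1.63 and 1.64 in untreated libraries. MSMO1 over LSS was 62.8 and 42.3 in siPIR, 4.07 and 4.65 in SP2509 and 0.576 and 0.543 in untreated libraries. FASN over SCD, the 2 most abundant members in untreated cells, was 0.00741 and 0.0101 in siPIR, 0.853 and 0.895 in SP2509 and 1.11 and 1.03 in untreated libraries. The 3 groups did not overlap for any of these ratios, which carries no weight because the pairs were picked with their values known. Ratios of other pairs were computed and are not given. The CPM of single genes did not overlap between 2 groups for 86.9% to 93.1% of all genes. The GC contents of MSMO1 and LSS differ by the most of these pairs, at 38.1% and 58.3%, and those of SREBF2 and SREBF1 by the least, at 57.1% and 62.8%.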

How the data were processed

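RNA-seq libraries were made with a directional kit, per the labels' protocols. The GRCh38 build, HISAT2, featureCounts, Subread 1.6.2, edgeR 3.26.4, Trimmomatic 0.32 and FastQC 0.11.8 are named per the submitters' processing notes. The authors deposited 1 table of estimated counts per gene, not normalized. Of its values above 0, 28.1% were not whole. The strand setting, how fractional values arose and which annotation was used: not given in the sources used here. Counts were rounded, which moved a member's value by at most 1.01%. Depth ran from 22622121 to 28816285 counts per library.

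Groups were taken from the sample titles. All 6 libraries were fitted as 3 groups with edgeR 4.0.16 (R 4.3.3) after filterByExpr and TMM scaling, by the robust quasi-likelihood test, with Benjamini-Hochberg adjustment over all 16503 genes tested and a threshold of 0.05. SEs are the log2 fold change divided by the root of its F value. CPM are TMM-scaled. GC content, length and coordinates are from GENCODE 29, in which 57055 of 60675 identifiers were found. The GC-length offset used natural splines of 5 degrees of freedom on 16345 genes. The fit was tested on simulated counts. The 33 members, the gene lists and the alternatives were chosen with earlier results of these data known. By rule, values per library are given for the 3 members with the smallest adjusted p in each direction and role group and for the SREBF, SCAP and INSIG genes in each comparison, and for other lists the genes named are among the 3 smallest adjusted p per direction. A few of the genes so selected are not reported here. The alternatives were 3 other scalings, DESeq2 1.42.0, 2 other filters, 2 blocks, the offset with and without a block, a fit of the 4 libraries compared, and fits without each library in turn.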

Additional observations from a re-analysis of the deposited data

How the results depend on the processing

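With 2 libraries a group, the fit left 3 residual degrees of freedom, and each call rests on few libraries. When each library was left out in turn, which assumes that the lone library varies like the other groups, 3 members rose and 19 to 20 fell in SP2509 over untreated cells, 7 to 10 rose and 21 to 23 fell in siPIR over untreated cells, and 11 to 13 rose and 18 fell in siPIR over SP2509 cells. Against the 3 members called higher in SP2509 over untreated cells, 1 was called with total counts, 7 with the GC-length offset, 6 with that offset and the replicate block, and 5 in a fit of the 4 libraries compared. Total counts called 20.4% of all genes higher (3363) and the GC-length offset 38.5%, against 33.5% (5521) as fitted. The shares of all genes are not given here for the fits without a library, with a block or of 4 libraries. Those counts therefore do not set the members apart from other genes. The other counts of members stayed within 1.5 times. The cause was not tested.

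Pairing was checked over 16503 genes by the replicate numbers of the titles. Deviations of same-numbered libraries correlated at -0.024 for SP2509 and untreated, -0.038 for siPIR and untreated and 0.081 for siPIR and SP2509 libraries. Such low values show no strong shift shared by same-numbered libraries, and they cannot show that the libraries were unpaired. The unexplained description numbers match siPIR replicate 2 with replicate 1 of the other groups and give siPIR replicate 1 an unmatched number. With the replicate block the counts were the same, 3 higher and 21 lower, 9 and 21, and 12 and 18 in the 3 comparisons.

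Directions turned as follows. In SP2509 over untreated cells, values that had not passed turned negative with upper-quartile scaling for INSIG2 (-0.02), SCAP (-0.17), ACSL3 (-0.09), ACSS2 (-0.14), NSDHL (-0.08) and SC5D (-0.20). With total counts they were -0.17, -0.33, -0.24, -0.29, -0.23 and -0.35 for the same genes, of which SCAP (edgeR adjusted p = 0.0422), ACSL3 (0.0465) and SC5D (0.0102) passed as lower. SREBF2 was at 0.04 with the offset, SC5D at -0.04 without untreated replicate 1 and -0.02 without SP2509 replicate 1, and SCAP at -0.04 without SP2509 replicate 2 (0.19 without replicate 1). In siPIR over untreated cells, SCD was at 0.06 with RLE factors or DESeq2, 0.03 with a block on the unexplained description number and 0.05 without siPIR replicate 1 (-0.19 without siPIR replicate 2). Total counts gave INSIG1 -0.32, ELOVL6 -0.25 and SQLE -0.40, all 3 called lower (edgeR adjusted p = 0.025, 0.0291 and 0.00199). The offset, with or without the replicate block, gave ACLY 0.36, ACSL3 -0.94, ACSS2 1.04, ELOVL6 -0.92, HMGCS1 -0.11 and IDI1 -0.35. In siPIR over SP2509 cells, ACACA, whose value is also the median of the fatty acid enzymes, was at 0.10 with RLE factors or DESeq2, 0.04 with upper-quartile scaling, 0.03 with the 1 CPM filter, 0.11 with the description block, 0.12 with the offset, 0.11 with the offset and replicate block and 0.13 without siPIR replicate 1. ACLY was at -0.05 with total counts. The offset turned the medians of the regulators to 0.33 (0.32 with the block) and of the mevalonate arm to 0.09. It gave ACSL3 -1.07, ACSS2 0.80, ACAT2 0.29, FDPS 1.10, HSD17B7 -0.67, LSS 0.16, MSMO1 -0.48 and TM7SF2 0.40.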
